A study of Mus musculus with 19 samples.

Results

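The set described here holds 40 genes that rod photoreceptors use to make their outer segment and to turn light into an electrical signal. A gene belonged to it when its symbol was on a list of rod genes, so the rule itself uses no measured value, although the list was drawn up with earlier results of these data known. The 40 genes were looked up in 3 tables of mouse retina RNA-seq that listed 22294 genes (48 h), 23635 genes (14 days) and 35734 genes (E17.5).

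Rods hold stacks of membrane discs in an outer segment, where the visual pigment activates the G protein transducin. Transducin switches on a phosphodiesterase that breaks down cyclic GMP, the cyclic GMP-gated channel closes, and the cell hyperpolarises. Kinase, arrestin and a GTPase-accelerating complex end the response, and guanylate cyclases with their calcium-sensing activators restore cyclic GMP. In the mouse most rods are born around birth, and the outer segment grows in the weeks after it, when these genes become some of the most abundant transcripts of the retina.

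Pou3f1 encodes a POU family transcription factor, and the study asked what its gain and its loss change in the retina. In the gain experiment, plasmid was electroporated at postnatal day 1 into eyes of wild-type CD1 mice. Cells positive for GFP were then sorted, and several sorts were combined until a replicate held 150000 cells. The 48 h comparison had 3 libraries labelled Gfp and 3 labelled Pou3f1. The 14-day comparison had 4 labelled Gfp and 5 labelled Pou3f1. The labels of the latter say 14 days after electroporation, and the protocol text says postnatal day 14. The loss experiment used E17.5 retinas of the C57B6J strain, unsorted, with 2 heterozygous (HET) and 2 homozygous knockout libraries, so the control also carried 1 knockout allele. The sources used here do not give the promoter of the plasmids or the kind of knockout allele. Of the 19 libraries, no values per library were used here, because each of the 3 tables holds 1 line per gene for 1 finished comparison. Levels per sample, and whether the groups overlap, can therefore not be given.

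Every fold change, standard error, p-value and adjusted p below comes from the authors' deposited table for its time point, and ± gives the authors' SE. Fold changes are log2, those of the overexpression tables are shrunken toward 0, and a gene was said to rise or fall at an adjusted p under 0.05. Electroporation of newborn retina reaches dividing and newly born cells, most of which become rods. In the authors' deposited table for 48 h, Pou3f1 itself was higher by 0.91 ± 0.26 (adjusted p = 0.0233). It was higher by 5.57 ± 0.27 at 14 days (adjusted p = 3.40e-88) and lower at E17.5, at -0.69 (adjusted p = 1.98e-08, no SE given). These values set the direction in which each table was read. Over all genes, the median fold change was -0.01 in both overexpression tables and 0.00 in the knockout table. The labels do not say that libraries came from separate animals, so p-values measure the spread between these libraries, some of which may be technical.

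In brief, 34 of the 40 genes were lower in Pou3f1 cells at 14 days and none was higher, with a median of -0.47. Over all genes tested at that time, 9.21% were lower and 11.5% higher. Only Mak fell among the 13 genes that the 48 h table lists, where 1.56% of all genes tested fell. All 13 nevertheless had values below 0. In the knockout at E17.5, 4 genes fell and none rose among the 25 with an adjusted p, where 5.34% of all genes fell. Of the 4 transcription regulators, Esrrb fell at 14 days and Nrl, Nr2e3 and Samd7 did not pass the test. The phototransduction genes from transducin to the cyclases fell in all but 1 case. The plot of all 40 genes in the 3 comparisons shows these values side by side.

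**Figure D1:**
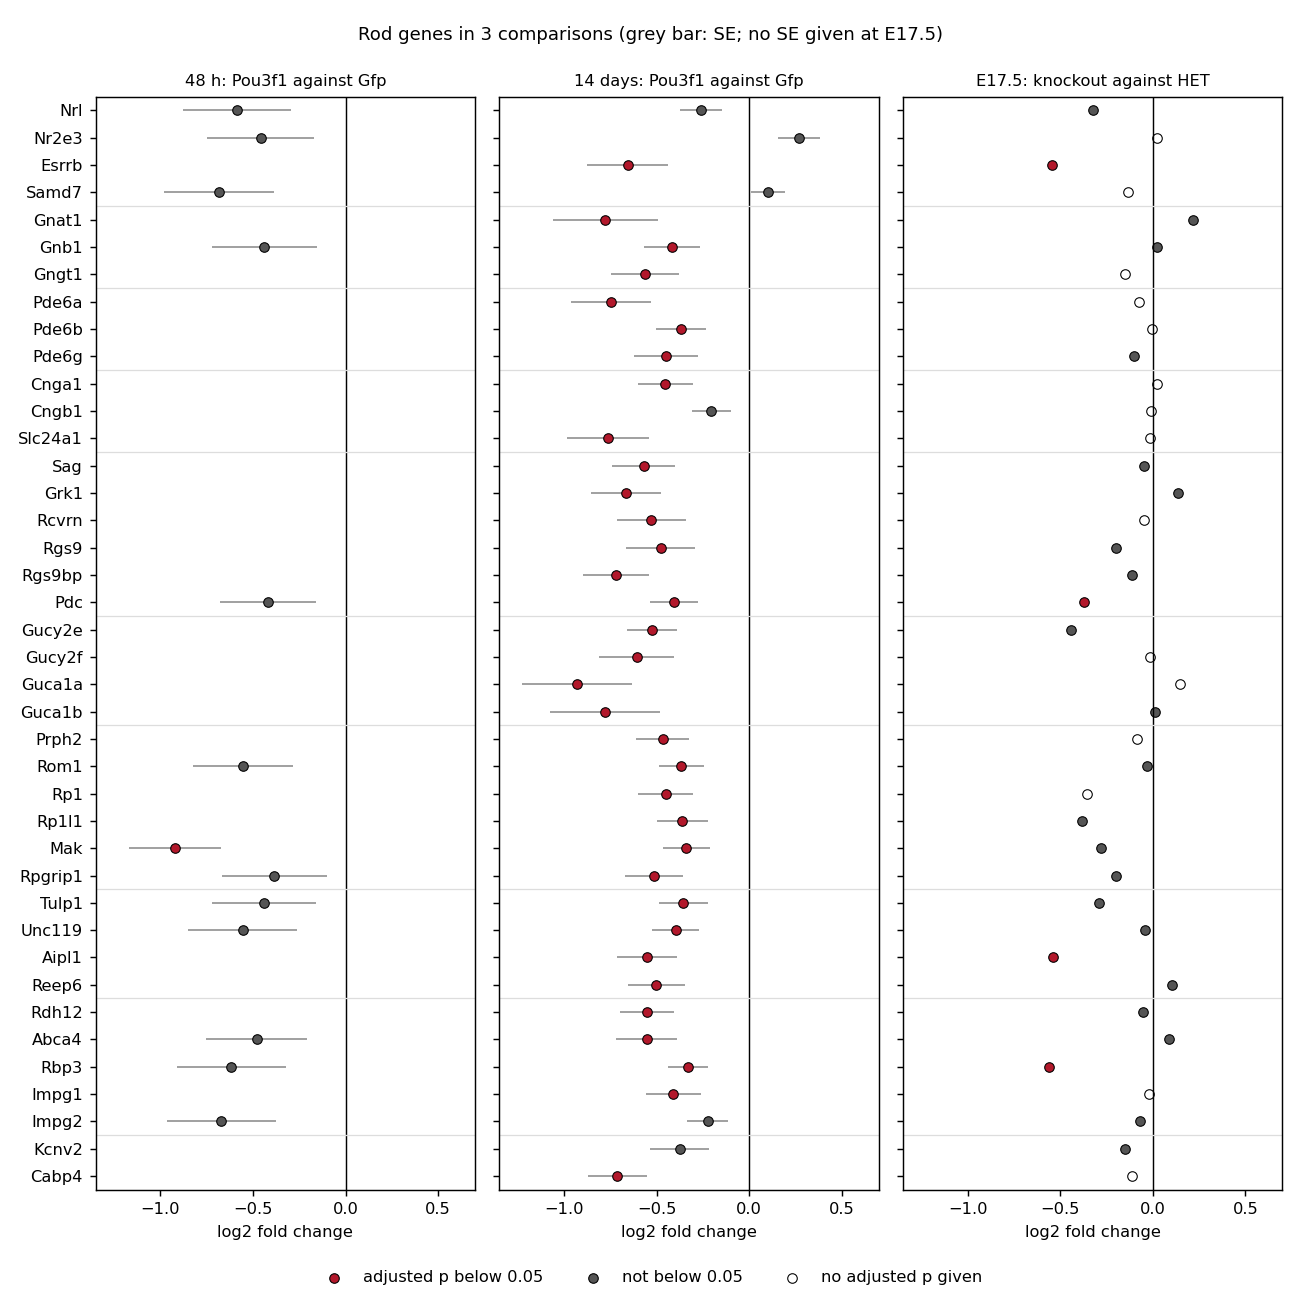
Log2 fold change of each of the 40 rod genes (rows, grouped by role) in the 3 tables deposited by the authors, with the SE as a grey bar where the table gives one. At 14 days 38 of the 40 points lie left of 0, the panel for 48 h has 13 points, and the E17.5 points centre near 0 apart from Rbp3, Esrrb, Aipl1 and other single genes.

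Promoter sequence was available for 29 of the 40 genes (33 promoters, RefSeq, GRCm38.p6). It is described first because these genes are known to be switched on together in rods by the homeodomain factor Crx and the rod factor Nrl. The 250 bases before each transcription start were searched on both strands for 4 motifs. These were the core site of Crx-type homeodomain proteins (GGATTA, on the other strand TAATCC), a Nrl-type site (TGCTGA or TCAGCA), the octamer of POU proteins (ATGCAAAT or ATTTGCAT) and the site of estrogen-related receptors (AAGGTCA or TGACCTT). The 4 motifs do not contain one another. For 26 of the 33 promoters, the first 30 bases after the start lay in a GENCODE transcript of the gene on the same strand.

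GGATTA was found in 14 of the 29 genes (48.3%), against 7.21% of the 27025 genes with a promoter in the same table. In 10 of the 14 it lay within 100 bases of the start (34.5% of the 29 genes, against 2.69% of all genes), a window chosen after the positions were seen. TGCTGA was found in 8 genes (27.6%, beside 4871 of the 27025 genes), AAGGTCA in 3 (10.3%, against 4.70%) and ATGCAAAT in 1 (3.45%, against 1.81%). A match says that the letters are there, not that a factor binds. Some matches lay in promoters whose start was not found in a GENCODE transcript. These were GGATTA in Guca1a, Gucy2f and Unc119, TGCTGA in Pde6b, Rdh12 and Rgs9, and AAGGTCA in Guca1a and Unc119. Of the 14 genes with GGATTA, 12 fell at 14 days (median -0.52), and of the 15 without it 12 fell (median -0.41). The other 11 genes were Gnat1, Pde6a, Pde6g, Rcvrn, Rgs9bp, Guca1b, Rp1, Rp1l1, Reep6, Kcnv2 and Cabp4.

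The promoters of 5 genes follow because the results below turn on their genes, each as the 250 bases before the start, 5′ to 3′ on the gene's own strand, with the motifs found in capitals. Rbp3 (chr14:33953753-33954002, + strand) and Aipl1 (chr11:72037510-72037759, - strand) belong to the 4 genes that fell both in the knockout and at 14 days. Sag (chr1:87803430-87803679, + strand) encodes arrestin and has the highest level per kilobase of the shut-off genes. Nrl (chr14:55524253-55524502, - strand) is the only one of the 29 with the POU octamer, and Samd7 (chr3:30746043-30746292, + strand) has GGATTA and did not fall at 14 days.
Rbp3: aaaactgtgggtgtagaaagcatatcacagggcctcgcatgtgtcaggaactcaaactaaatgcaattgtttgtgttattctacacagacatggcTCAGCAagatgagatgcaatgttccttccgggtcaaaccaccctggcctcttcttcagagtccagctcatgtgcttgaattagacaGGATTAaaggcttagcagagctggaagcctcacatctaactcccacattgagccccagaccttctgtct
Aipl1: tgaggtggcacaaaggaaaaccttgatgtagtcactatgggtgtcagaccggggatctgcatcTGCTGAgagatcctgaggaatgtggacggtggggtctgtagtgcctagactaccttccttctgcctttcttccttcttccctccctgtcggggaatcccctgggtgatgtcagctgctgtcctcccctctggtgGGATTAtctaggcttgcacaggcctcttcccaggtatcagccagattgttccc
Sag: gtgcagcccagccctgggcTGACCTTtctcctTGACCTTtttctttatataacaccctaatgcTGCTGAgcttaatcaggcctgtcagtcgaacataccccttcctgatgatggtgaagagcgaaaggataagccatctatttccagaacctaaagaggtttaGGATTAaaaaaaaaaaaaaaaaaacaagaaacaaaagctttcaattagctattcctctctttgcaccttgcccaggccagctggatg
Nrl: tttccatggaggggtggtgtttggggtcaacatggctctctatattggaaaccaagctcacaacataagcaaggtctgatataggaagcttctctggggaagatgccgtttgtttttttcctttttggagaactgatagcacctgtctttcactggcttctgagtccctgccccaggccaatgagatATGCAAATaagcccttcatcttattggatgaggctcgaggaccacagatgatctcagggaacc
Samd7: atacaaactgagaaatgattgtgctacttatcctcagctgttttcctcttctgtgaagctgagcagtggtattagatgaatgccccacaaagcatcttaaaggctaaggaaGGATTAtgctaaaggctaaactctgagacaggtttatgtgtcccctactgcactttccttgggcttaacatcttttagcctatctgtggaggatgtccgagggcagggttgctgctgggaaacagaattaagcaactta
GGATTA starts 69 bases before the start in Rbp3, 53 in Aipl1, 87 in Sag and 139 in Samd7, each on the gene's own strand. The TGCTGA match lies on the other strand in Rbp3, and Sag holds AAGGTCA on the other strand at 2 positions. The octamer of Nrl starts 63 bases before the start.

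The 48 h table lists 13 of the 40 genes. They are Nrl, Nr2e3, Samd7, Gnb1, Pdc, Rom1, Mak, Rpgrip1, Tulp1, Unc119, Abca4, Rbp3 and Impg2. The other 27 genes (67.5%) have no line in it, among them every phosphodiesterase, channel and cyclase gene of the set. Their lack from the table is not a measured level of 0. Of the 6920 genes with a mean normalized count of at least 1000 in the 14-day table, 106 (1.53%) have no line at 48 h. These 106 include 27 of the 40 rod genes, 6 other rod and outer segment genes and 3 cone genes. Why they have no line was not tested.

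In the authors' deposited table for 48 h, Mak fell by 0.92 ± 0.25 on the log2 scale (adjusted p = 0.0137). Mak encodes a kinase of the photoreceptor axoneme. It lies on chromosome 13 from 41025008 to 41079706 (GENCODE M21, GRCm38). Its shrunken fold change corresponds to 52.8% of the level in Gfp cells. Across the table, 1.56% of the 14714 genes with an adjusted p fell, against 1 of the 13 rod genes. In these sorted pools, and in the unsorted retinas at E17.5, fewer rods and less RNA per rod cannot be told apart.

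The other 12 genes had values from -0.68 to -0.38 at 48 h and did not pass the test. Among the regulators, Samd7, a partner of a repressive chromatin complex in rods, had -0.68 ± 0.30 (adjusted p = 0.226). Nrl, which sets the rod fate, had -0.59 ± 0.29 (adjusted p = 0.322). Nr2e3, the nuclear receptor that acts with Nrl and represses cone genes, had -0.46 ± 0.29 (adjusted p = 0.486). All 3 regulators were thus below 0, with SEs among the largest of the table.

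The interphotoreceptor matrix genes were at similar values in the authors' deposited table for 48 h. Impg2, a matrix proteoglycan, had -0.67 ± 0.30 (adjusted p = 0.239). Rbp3, the retinoid-binding protein of that matrix, had -0.62 ± 0.29 (adjusted p = 0.287). Values nearer to 0 were listed for the disc rim protein Rom1 (-0.55 ± 0.27), the lipid-anchor carrier Unc119 (-0.56 ± 0.29) and the retinoid transporter Abca4 (-0.48 ± 0.27). The widely expressed G protein subunit Gnb1 (-0.44 ± 0.28), the trafficking protein Tulp1 (-0.44 ± 0.28), the transducin-binding protein Pdc (-0.42 ± 0.26) and the cilium protein Rpgrip1 (-0.38 ± 0.28) followed. Of the 13 genes, 6 had an unadjusted p under 0.05 (Mak, Samd7, Impg2, Rbp3, Rom1 and Nrl), and the median of the 13 was -0.55.

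The SEs of these 13 genes were large for their abundance. They ran from 0.250 to 0.296, where the largest SE of any gene is 0.296. For each gene, genes with a mean count within 2-fold of its own were taken as like genes (174 to 5203 of them), and their median SE was 0.151 to 0.169. The SE of the rod gene exceeded that of 98.0% to 100% of its like genes, with a median of 99.4%. The 48 h values of these genes therefore carry more spread than most genes of the same count, and the source of that spread was not tested. The plot of SE against abundance shows the 13 points along the upper edge.

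**Figure D2:**
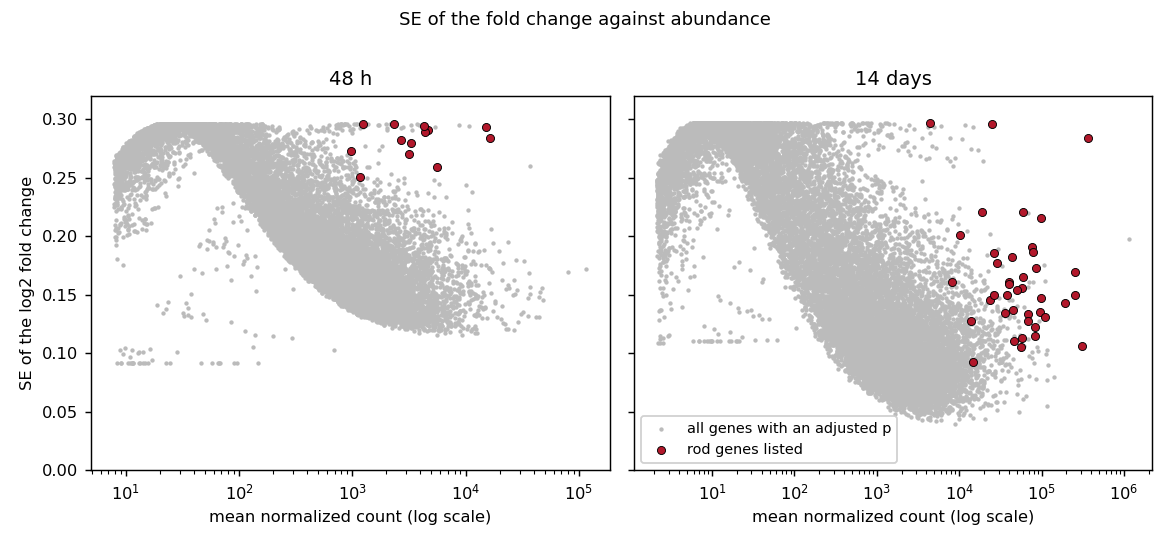
SE of the log2 fold change (vertical) against the mean normalized count (horizontal, log scale) for all genes with an adjusted p (grey) and the rod genes listed (red), in the authors' deposited tables at 48 h (left) and 14 days (right). At 48 h the 13 rod genes lie between 0.250 and 0.296, above most genes of like count, and at 14 days the 40 rod genes spread over a wider range.

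At 14 days all 40 genes are listed with an adjusted p. By the authors' deposited table for that time, 34 fell, none rose and 6 did not pass the test. Over all 17789 genes with an adjusted p, 9.21% fell and 11.5% rose. The shrunken fold changes were moderate, and the size before shrinkage is not known. Of the 40 genes, 25 lay between -0.3 and -0.6, 10 lay below -0.6 and none was lowered 2-fold. The 40 genes together made up 8.19% of the summed mean counts of the 14-day table, so sorted cells at this age carried rod transcripts in abundance. Per kilobase of the longest transcript, the highest mean counts of the set were those of Gnat1 (156893), Sag (149079), Pde6g (95779), Gnb1 (80979) and Rcvrn (76193). The lowest was that of Gucy2f (1245).

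The fold changes were then set against the level and the SE. Across the 40 genes, Spearman's rho between the 14-day fold change and the mean count per kilobase was 0.09. Between the fold change and its SE it was -0.90, so genes with values further below 0 also had larger SEs. Both are descriptions across genes measured in the same libraries. Of the 35 rod genes with at least 20 like genes, 33 had an SE above that of more than 50% of them, and 19 above that of more than 90%.

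All 3 transducin subunits fell at 14 days (median -0.56). Gnat1, the rod transducin alpha subunit, lies on chromosome 9 from 107674474 to 107679712. It had -0.78 ± 0.28 (adjusted p = 0.0343), a shrunken value that corresponds to 58.4% of the level in Gfp cells. Gngt1, the gamma subunit, had -0.56 ± 0.18 (adjusted p = 0.0148). Gnb1, the beta subunit that many other cells also use, had -0.42 ± 0.15 (adjusted p = 0.0304). The subunit with the widest expression thus had the smallest change of the 3, and the difference between them was not tested.

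The phosphodiesterase genes, whose products break down cyclic GMP, also fell (3 of 3, median -0.45). The catalytic subunit gene Pde6a had, in the authors' deposited table for 14 days, -0.75 ± 0.22 (adjusted p = 0.00553) and its catalytic partner Pde6b -0.37 ± 0.14 (adjusted p = 0.0367). The inhibitory subunit gene Pde6g had -0.45 ± 0.17 (adjusted p = 0.0464). Pde6a and Pde6b had like mean counts, 99384 and 95826.

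Of the 3 channel and exchanger genes, 2 fell. Slc24a1, which encodes the exchanger that removes calcium from the rod outer segment, had -0.76 ± 0.22 (adjusted p = 0.00579). Cnga1, the alpha subunit of the cyclic GMP-gated channel, had -0.45 ± 0.15 (adjusted p = 0.0172). The channel's beta subunit gene Cngb1 had -0.20 ± 0.11 and did not pass (adjusted p = 0.161). Its SE was exceeded by that of 50% of its like genes, one of the smallest relative spreads of the set.

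All 6 genes of the shut-off machinery fell at 14 days (median -0.55). Rgs9bp, the anchor of the GTPase-accelerating complex, had -0.72 ± 0.18 (adjusted p = 0.000939), and Rgs9, its catalytic member, had -0.48 ± 0.19 (adjusted p = 0.0488). Grk1, the kinase of the activated pigment, had -0.66 ± 0.19 (adjusted p = 0.00543). Sag, whose promoter is printed above, had -0.57 ± 0.17 (adjusted p = 0.00730) at a mean count of 256267. Both binding partners in calcium and transducin control were lower too. Rcvrn, the calcium sensor that restrains the kinase, had -0.53 ± 0.19 (adjusted p = 0.0274), and Pdc had -0.41 ± 0.13 (adjusted p = 0.0147).

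The cyclases and their activators had the lowest median of the 10 roles, -0.69, and all 4 fell. Guca1a, a guanylate cyclase activator on chromosome 17 from 47394558 to 47400584, had the lowest value of the 40 genes, -0.93 ± 0.30 (adjusted p = 0.0134). Its neighbour Guca1b, the other activator, starts at 47385393 on the same chromosome and had -0.78 ± 0.30 (adjusted p = 0.0443). These 2 genes had SEs larger than all their like genes. The cyclase genes had smaller SEs than the activators, with -0.52 ± 0.13 for Gucy2e (adjusted p = 0.00161). The X-linked Gucy2f had -0.61 ± 0.20 (adjusted p = 0.0174). The SE of Gucy2f still exceeded that of 98.3% of its like genes, and the SE of Gucy2e that of 82.2%.

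Genes of the discs and the axoneme fell in 6 of 6 cases, with a narrower range in the authors' deposited table for 14 days, from -0.51 to -0.34. Prph2 and Rom1, the tetraspanins of the disc rim, had -0.47 ± 0.14 (adjusted p = 0.00976) and -0.37 ± 0.12 (adjusted p = 0.0186). Rp1 and Rp1l1, microtubule-associated proteins of the axoneme, had -0.45 ± 0.15 (adjusted p = 0.0157) and -0.36 ± 0.14 (adjusted p = 0.0436). Rpgrip1 had -0.51 ± 0.16 (adjusted p = 0.00889). Mak, the one gene that fell at 48 h, was at the upper end here with -0.34 ± 0.13 (adjusted p = 0.0404).

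The 4 trafficking and chaperone genes fell (median -0.45). Aipl1, the chaperone that phosphodiesterase needs, had -0.55 ± 0.16 (adjusted p = 0.00628), and Reep6, a membrane trafficking protein of rods, had -0.50 ± 0.15 (adjusted p = 0.0102). Unc119 had -0.40 ± 0.13 (adjusted p = 0.0144) and Tulp1 -0.35 ± 0.13 (adjusted p = 0.0408).

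Among the 5 retinoid and matrix genes, 4 fell. Abca4, the disc rim transporter that clears retinoids, had -0.55 ± 0.17 (adjusted p = 0.00772). Rdh12, a retinol dehydrogenase of the inner segment, had -0.55 ± 0.15 (adjusted p = 0.00206). Rbp3 had -0.33 ± 0.11 (adjusted p = 0.0144) at a mean count of 307476, and the matrix gene Impg1 had -0.41 ± 0.15 (adjusted p = 0.0342). Impg2 did not pass, with -0.22 ± 0.11 (adjusted p = 0.138). Outside the outer segment, Cabp4, the calcium-binding protein of the photoreceptor synapse, had -0.71 ± 0.16 and the lowest adjusted p of the set (0.000242). Kcnv2, a potassium channel subunit of the inner segment, had -0.38 ± 0.16 (adjusted p = 0.0761) and did not pass.

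The regulators stood at the other end of the order, with a median of -0.08 in the authors' deposited table for 14 days and 1 fall among 4. Esrrb, an estrogen-related receptor that supports rod survival and energy use, fell to -0.66 ± 0.22 (adjusted p = 0.0198). Nrl, the carrier of the octamer above, had -0.26 ± 0.11 (adjusted p = 0.0889). Samd7 had 0.10 ± 0.09 (adjusted p = 0.472) and Nr2e3 0.27 ± 0.11 (adjusted p = 0.0747), the only members above 0. Nr2e3 and Samd7 were thus the highest of the 40 genes in a set where every other value was negative.

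A stricter limit left fewer falls. At an adjusted p under 0.01, 12 of the 40 genes fell at 14 days, against 4.45% of all genes tested. They were Cabp4, Rgs9bp, Gucy2e, Rdh12, Grk1, Pde6a, Slc24a1, Aipl1, Sag, Abca4, Rpgrip1 and Prph2, which come from 8 of the 10 roles. No regulator and no transducin subunit is among them. Genes with expression restricted to rods and genes that cones or other cells also use had like medians. Of the 13 rod-restricted genes 10 fell (median -0.50), and of the 27 others 24 fell (median -0.47). The genes listed at 48 h fell in 9 of 13 cases (median -0.35), and those with no line at 48 h in 25 of 27 (median -0.55).

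The values at both ages can be compared for 13 genes, from separate libraries. The difference between the 14-day and the 48 h fold change was tested by a two-sided z test with the SE of both, adjusted over 14580 genes, of which 6.14% were called. None of the 13 rod genes was called, with a lowest adjusted p of 0.112, and 3 had an unadjusted p under 0.05. Samd7 had a difference of 0.79 ± 0.31 (95% interval 0.18 to 1.39, adjusted p = 0.112). Nr2e3 had 0.73 ± 0.31 (0.12 to 1.34, adjusted p = 0.151), and Mak had 0.58 ± 0.28 (0.03 to 1.13, adjusted p = 0.225). The difference was positive, that is, less below 0 at 14 days, in 11 of the 13. For Rpgrip1 and Abca4 it was negative, -0.13 ± 0.32 and -0.07 ± 0.32. The intervals are wide, as that of Pdc shows (-0.56 to 0.58), so equal change at both ages is not shown. The fold changes of both ages are shrunken toward 0, which limits this test and its intervals. Over the 13 genes Spearman's rho between both fold changes was -0.62, a description only.

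Cone photoreceptors run the same cascade with their own copies of many of these proteins, and 10 pairs of a rod gene and its cone counterpart were set side by side. Both genes were below 0 in 10 of 10 pairs of the authors' deposited table for 14 days, and both fell in 8. The cone transducin alpha gene Gnat2 had -0.81 ± 0.22, beside -0.78 ± 0.28 for Gnat1. Cone arrestin, Arr3, had -0.96 ± 0.28, beside -0.57 ± 0.17 for Sag. The cone phosphodiesterase gene Pde6c had -0.73 ± 0.21, close to Pde6a and further below 0 than Pde6b. The cone gene was further below 0 in 7 of the 10 pairs, and the difference of cone minus rod ran from -0.39 (Arr3 and Sag) to 0.28 (Gnb3 and Gnb1). Gnb3, the cone transducin beta gene, had -0.14 ± 0.11 and did not pass (adjusted p = 0.408). Cngb3 fell with -0.48 ± 0.17 (adjusted p = 0.0299), while its rod counterpart Cngb1 did not pass. Both genes of a pair come from the same libraries, so the differences were not tested. The falls at 14 days were therefore not limited to rod genes, as the plot of the pairs shows.

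**Figure D3:**
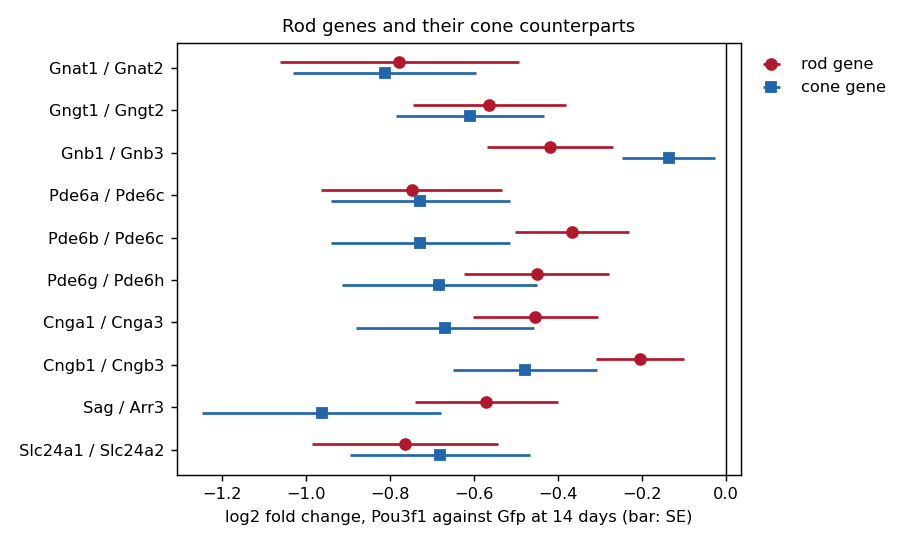
Log2 fold change at 14 days with its SE for each rod gene (red circle) and its cone counterpart (blue square) in the authors' deposited table. All points lie below 0, and the cone gene is further left in 7 of the 10 pairs.

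Other rod and outer segment genes moved less uniformly. Of 25 such genes outside the set, 13 fell and 1 rose at 14 days (median -0.36). Fscn2, an actin bundler of the outer segment, had in the authors' deposited table for 14 days -0.77 ± 0.20 (adjusted p = 0.00146). Cplx4, a complexin of the photoreceptor synapse, had -0.55 ± 0.16 (adjusted p = 0.00690). Arl3, a small GTPase of ciliary transport, had -0.43 ± 0.13 (adjusted p = 0.00945), and Pde6d, a carrier of lipid-anchored proteins, had -0.36 ± 0.10 (adjusted p = 0.00326). The gene that rose was Prdm1, a repressor that favours photoreceptor over bipolar fate, with 0.43 ± 0.16 (adjusted p = 0.0328).

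Regulators outside the set had other values at 48 h. Of the 19 listed genes of that list, 3 fell and none rose (median -0.44), and all 3 are transcription factors. Prdm1 had -0.75 ± 0.17 (adjusted p = 0.00182), the opposite sign to its 14-day value. Crx, the homeodomain factor whose core site was searched above, had -0.74 ± 0.22 (adjusted p = 0.0351), and Neurod1, a basic helix-loop-helix factor of photoreceptors, had -0.59 ± 0.18 (adjusted p = 0.0458). At 14 days Crx had -0.12 ± 0.09 (adjusted p = 0.391) and Neurod1 -0.15 ± 0.11 (adjusted p = 0.356), and neither passed the test.

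Markers of other cells moved in the same 14-day table, and their part in the falls of the rod genes was not tested. All 10 microglia markers rose (median 1.69), with mean counts that summed to 2977, or 0.00773% of the table. Of the 10 retinal progenitor markers 5 rose (median 0.55), and of the 10 amacrine markers 2 rose (median 0.28). Müller glia markers fell in 6 of 12 cases (median -0.33), and cone genes in 11 of 15 (median -0.67). Of the 12 bipolar markers 1 rose and 1 fell (median -0.05), and of 10 ganglion cell markers 1 rose. Vessel markers fell in 2 of 8, 1 of 9 pigment epithelium markers rose, and 1 of 6 red blood cell markers rose and 1 fell. At 48 h none of the 6 microglia markers with an adjusted p passed the test. The plot of the lists sets the rod genes beside these markers.

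**Figure D4:**
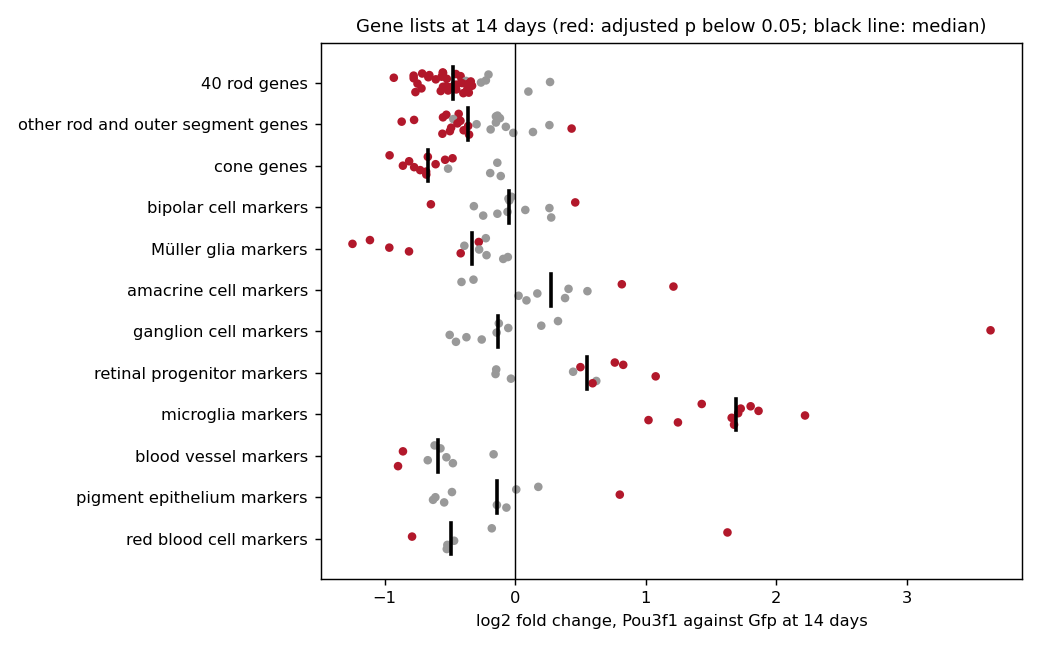
Log2 fold change at 14 days (horizontal) of every gene with an adjusted p in the set of 40 rod genes and in 11 other lists (rows), red where the adjusted p is below 0.05, with the median as a black line. The rod genes centre at -0.47, the cone genes at -0.67, the progenitor markers at 0.55 and the microglia markers at 1.69.

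At E17.5, before the outer segment forms, all 40 genes are listed and 25 have an adjusted p. Of the 25, the authors' deposited table has 4 that fell in the knockout and none that rose, with a median of -0.11 over the 25 and of -0.07 over all 40. Over all 14821 genes with an adjusted p, 5.34% fell. Rbp3, on chromosome 14 from 33954003 to 33964216, had -0.56 (adjusted p = 1.48e-05), or 67.7% of the level in HET retinas. Esrrb had -0.54 (adjusted p = 0.0234), Aipl1 -0.54 (adjusted p = 0.0254) and Pdc -0.37 (adjusted p = 0.0360). These 4 genes come from 4 different roles. GGATTA was found before Rbp3 and Aipl1, as printed above, and not in the windows of Esrrb and Pdc. The table gives no SE and no mean count, so the precision of each value is known only through its p-value.

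The remaining 21 genes with an adjusted p had values from -0.44 to 0.22 at E17.5. Gucy2e (-0.44, adjusted p = 0.0900), Rp1l1 (-0.38, adjusted p = 0.141), Nrl (-0.32, adjusted p = 0.213), Tulp1 (-0.29, adjusted p = 0.256) and Mak (-0.28, adjusted p = 0.113) were furthest below 0 among those that did not pass. Gnat1 had the highest value, 0.22 (adjusted p = 0.535). The other subunits of transducin and phosphodiesterase with an adjusted p were Gnb1 (0.02) and Pde6g (-0.10), and neither passed the test. The other 15 genes have no adjusted p in the table, among them Nr2e3, Samd7, Prph2, Cnga1 and Cngb1. Rp1 had -0.36 with an unadjusted p of 0.00636 and was one of these 15.

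Most of these genes had the same sign with Pou3f1 added at 14 days and with Pou3f1 lost at E17.5. Of the 25 with an adjusted p in both tables, 19 were below 0 in both, and the other 6 were above 0 at E17.5 only. All 25 were below 0 at 14 days, so this count only repeats the signs at E17.5. Over all genes with an adjusted p in both, 3624 of 14555 were below 0 in both. The 4 genes that fell in the knockout also fell at 14 days, which is 100% of those 4 and 18.2% of the 22 that fell at 14 days. Since 22 of the 25 fell at 14 days, such an overlap was close to fixed in advance. It therefore says little about a link between gain and loss. Over all genes with both, 90 fell in both comparisons, or 11.5% of the 781 lower at E17.5 and 6.39% of the 1409 lower at 14 days. The comparisons share no libraries, but they differ in age, strain, tissue and sorting, and these cannot be told apart. The plot of one comparison against the other shows the 40 genes.

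**Figure D5:**
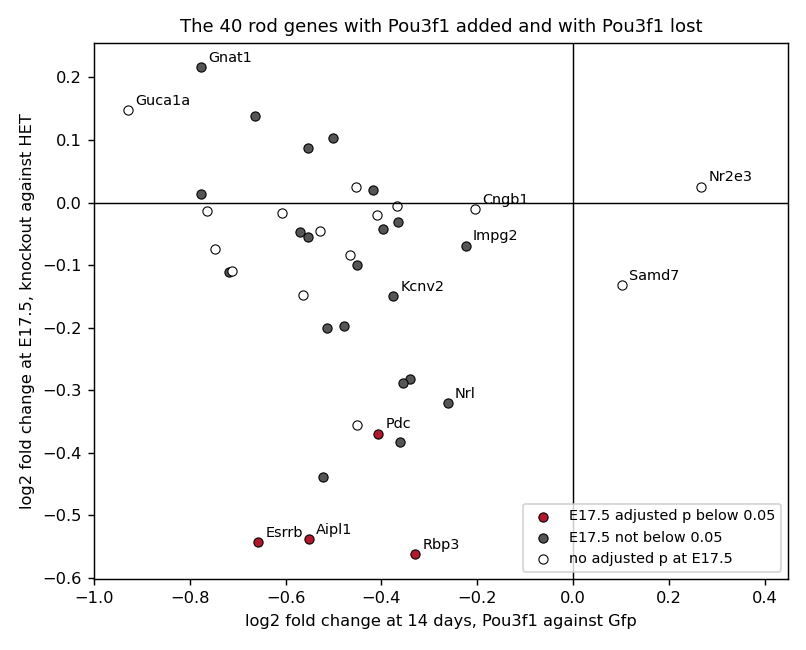
Log2 fold change of the 40 rod genes at E17.5 (vertical, knockout against HET) and at 14 days (horizontal, Pou3f1 against Gfp), with genes that fell at E17.5 in red and genes with no adjusted p there as open circles. Rbp3, Esrrb, Aipl1 and Pdc lie in the lower left, and Nr2e3 and Samd7 are the only points right of 0.

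Other photoreceptor lists were also looked up at E17.5, where 5.34% of all genes with an adjusted p fell. Of 20 other rod and outer segment genes with an adjusted p, 3 fell and none rose (median -0.20). By the authors' deposited table these were the outer segment cadherin Cdhr1 (-0.52, adjusted p = 8.97e-05), the photoreceptor and bipolar factor Otx2 (-0.35, adjusted p = 0.00335) and Prdm1 (-0.34, adjusted p = 0.00546). Of 12 cone genes 1 fell (median -0.22). Amacrine markers fell in 8 of 9 cases (median -0.93), and Müller glia markers fell in 4 of 12 and rose in 1. Their part in the rod gene values was not tested. Prdm1 thus fell at E17.5 and at 48 h and rose at 14 days.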

How the data were processed

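The 19 libraries fall into 6 groups by their labels. Per the submitters' processing notes, Salmon, DESeq2 and the mm10 build were used, with no versions, annotation or design formula in the sources at hand. In the overexpression tables, the signal deposited by the authors is a mean normalized count over the libraries of a comparison. The log2 fold changes with their SE, the Wald score (fold change over SE, as checked on the values), the p-values and the adjusted p (Benjamini-Hochberg above an abundance limit) were also deposited by the authors. The knockout table holds no SE or mean count, and its file name gives embryonic day 14 where the labels give 17.5. Depth per library is unknown.

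Computed here were counts and medians over lists, the z test of 14 days minus 48 h, SE comparisons and motif counts. The z test was also run on simulated fold changes without shrinkage. Those cannot show how it behaves on the shrunken values. The members and the lists were chosen with earlier results of these data known. Named were any of the 40 genes, Pou3f1, both genes of a pair, and up to 4 genes of each other list by adjusted p; Prdm1, Crx and Neurod1 at 14 days were named after their values were seen. Calls used the authors' adjusted p at 0.05. Gene positions are from GENCODE mouse release 21, which holds 99.2% of the identifiers. Alternatives were a limit of 0.01, at least 2-fold change, Benjamini-Hochberg over every gene with a p-value, and minimum mean counts of 5 and of 10. Medians and differences were also centred on the median gene, and counts were limited to falls below that median. Motif windows of 100 and 300 bases were both added after seeing the data. The work was done in Python 3.11.15 (pandas 2.3.3, numpy 2.4.6, scipy 1.17.1; plots by matplotlib 3.10.9).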

Additional observations from a re-analysis of the deposited data

How the results depend on the processing

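Of 25 alternative values of the main counts and medians, 6 counts moved by over 1.5 times. No median changed sign, and a count could not reverse. The count of 0 genes that differed between 14 days and 48 h could not drop at the stricter limit. The median of the rod genes at E17.5 went from -0.11 over the 25 with an adjusted p to -0.07 over all 40. At an adjusted p under 0.01, 12 rod genes fell at 14 days, 0 at 48 h and 1 in the knockout, against 4.45%, 0.741% and 3.12% of all genes. With a 2-fold limit added the count was 0 in each of the 3 tables, against 0.371%, 0.204% and 0.175% of all genes in that order. At 14 days and at 48 h this limit was applied to shrunken fold changes. Adjustment over all genes with a p-value left 28 falls at 14 days and 3 at E17.5. Limits on the mean count left 34 at 14 days, where the lowest mean count of the set was 4407, so they changed only the adjustment. In another alternative a fall also had to lie below the median of all genes, -0.01 at 14 days. That left 34 too, but all falls there lay well below this median, so none could drop out. With the promoter window at 300 bases GGATTA was found in 14 genes and TGCTGA in 9. At 100 bases GGATTA was found in 10, TGCTGA in 1 (3.45%, against 7.98% of all genes), AAGGTCA in 1 and ATGCAAAT in 1. The falls at 14 days are thus small on the shrunken scale, and their size before shrinkage is not known. Of the 34, 22 have an adjusted p between 0.01 and 0.05. No paired analysis was possible because the tables hold no values per library, so a replicate block and leaving out each replicate were not run, although the labels share replicate numbers at 48 h and at 14 days. Depth per library, the spread behind each SE and the 27 genes with no line at 48 h limit what these tables can show. Fold changes of the overexpression tables are shrunken toward 0, which understates the change of genes with large SEs.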
